A study of Mus musculus with 15 samples.

Results

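The unfolded protein response is described here through 10 endoplasmic reticulum (ER) stress genes, Hspa5, Hsp90b1, Calr, Pdia4, Dnajb9, Herpud1, Xbp1, Atf4, Ddit3 and Trib3, in mouse kidney. The 10 were chosen by name, as standard members of the response, with earlier results of these data known. Their values were made by matching the deposited Ensembl transcripts to symbols in GENCODE release M21 and summing each gene's FPKM (fragments scaled to transcript length and library size) over the transcripts listed for every mouse. All 10 were among the 13923 genes with such a transcript, and 9 of them, all but Trib3, were among the 12359 genes that reached 1 FPKM in at least 5 of 15 mice and were tested. The kidneys came from male wild type C57BL/6 mice, bought at 8 weeks of age, with 5 mice in each of 3 groups, and every mouse carried an osmotic pump for 28 days. The Control group was infused with saline. The Ang II group received angiotensin II, the effector peptide of the renin-angiotensin system, at 500 ng/kg/min. The Ang II + QDG group, called the QDG mice hereafter, received the same infusion and Qingda granule (QDG), a preparation of Gastrodia elata, Uncaria rhynchophylla, Scutellaria baicalensis and Nelumbo nucifera, at 1.145 g/kg/day by mouth. Ang II vs. Control is called the infusion comparison, Ang II + QDG vs. Ang II the QDG comparison, and the remaining pair the QDG-to-Control comparison. The second treatment of the Control and Ang II mice is saline in the labels and double distilled water in the study's methods.

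The ER folds secreted and membrane proteins, and a load of unfolded protein there frees the sensors IRE1, PERK and ATF6 from the chaperone BiP. IRE1 cuts Xbp1 mRNA, PERK slows translation and favours that of Atf4, and ATF6 is released as a transcription factor, so that chaperones, degradation factors and, under lasting stress, the Atf4 targets Ddit3 and Trib3 are transcribed. In kidney, tubule cells and podocytes carry a large secretory or membrane protein load, and the response has been studied in both.

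The steps between low values implied totals of 75034600 to 81329500 reads per mouse in Control, 70697600 to 79292000 in Ang II and 68922800 to 76143500 with QDG, where 4 of 5 mice lay below all mice of the other groups. Each library had a correlation of 0.965 to 0.971 across genes with the mean of the other 4 of its group. Proximal tubule markers were high in every mouse, with a summed level of 2796 to 3939 FPKM for Lrp2, Cubn, Slc34a1, Slc5a2 and Aqp1. Transcripts of the mitochondrial genome took 18.5% to 20.7% of the summed FPKM in Control, 15.4% to 16.02% in Ang II mice and 16.9% to 19.8% in QDG mice, and FPKM of all other genes share what is left. The samples were whole tissue, in which fewer cells of a type and less RNA per cell cannot be told apart.

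The promoters of the chaperone genes are where the ER stress elements were defined, so the matches in the RefSeq windows (GRCm38.p6, from 250 bases before the transcription start to 50 after it) are shown first. The ER stress element (ERSE) was searched as CCAAT and CCACG with 9 bases between them, ERSE-II as ATTGG and CCACG with 1 base between them, the unfolded protein response element as TGACGTGG, and the core of the amino acid response element, which Atf4 binds, as TGATG and AAT with 1 base between them, each on both strands. Every member had a window. ERSE stood in 3 of the 10, those of Hspa5, Hsp90b1 and Calr, against 0.119% of all 32851 windows, and ERSE-II in that of Herpud1, against 0.0365%. These shares are a description with no test, since the elements were defined in promoters of genes such as these. The unfolded protein response element and the amino acid core were in none of the 10 windows and in 0.676% and 0.965% of all windows. The matches are printed on the gene's strand with 5 bases on either side and the searched letters in capitals; where the element lies on the opposite strand it reads as CGTGG and ATTGG.
Hspa5, chr2:34772020-34772048, plus strand: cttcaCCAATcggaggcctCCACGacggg
Hsp90b1, chr10:86705633-86705661, minus strand: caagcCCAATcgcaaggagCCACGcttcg
Hsp90b1, chr10:86705528-86705556, minus strand: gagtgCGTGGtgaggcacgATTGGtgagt
Calr, chr8:84847070-84847098, minus strand: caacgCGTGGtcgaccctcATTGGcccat
Herpud1, chr8:94386372-94386392, plus strand: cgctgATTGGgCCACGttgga
The match of Hspa5 covered bases −65 to −47 from the transcription start, the 2 of Hsp90b1 bases −212 to −194 and −107 to −89, that of Calr bases −162 to −144 and that of Herpud1 bases −52 to −42. No 2 of these matches overlapped.

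**Figure D1:**
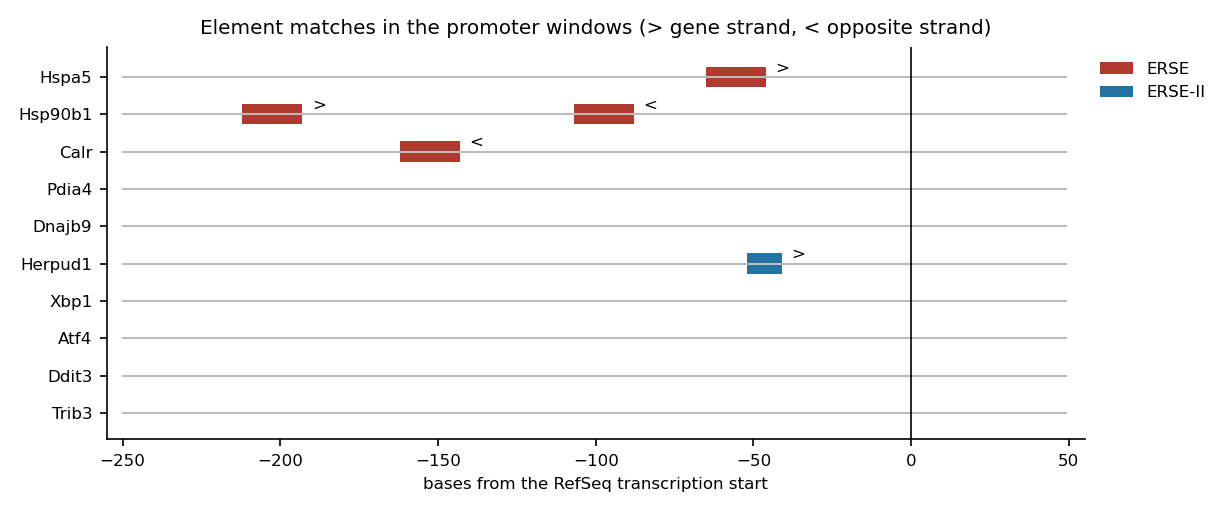
Matches of the searched elements in the promoter window of each of the 10 genes; the horizontal axis is the distance in bases from the RefSeq transcription start. Red bars are ERSE and the blue bar is ERSE-II; 4 of the 10 windows hold a match, all upstream of the start.

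Of the 9 tested members, 2 were upregulated in the infusion comparison, Atf4 and Xbp1, and 0 were downregulated, at an adjusted p under 0.05 from limma with Benjamini-Hochberg adjustment over all tested genes. The background was 5.95% of all genes. The all-gene shares at an adjusted p under 0.05 moved when 1 mouse was left out, with counts given below beside the other response genes. At an unadjusted p under 0.05 there were 3, all higher, with Calr added, against 22.7% of all genes (2215 higher and 596 lower). In the QDG comparison, where the background was 1.81%, 0 members passed. There, 4 members, Calr, Hsp90b1, Hspa5 and Atf4, had an unadjusted p under 0.05. All of them were lower with QDG, against 16.4% of all genes (743 higher and 1289 lower). In the QDG-to-Control comparison, where the background was 0.129%, 0 members passed. In that comparison 4 had an unadjusted p under 0.05, of which Xbp1 was higher and Hspa5, Hsp90b1 and Pdia4 were lower, against 14.4% of all genes. The Ang II mice enter the first 2 comparisons and the members' changes in them are therefore not independent. No member had a 2-fold change with an unadjusted p under 0.05 in any of the 3 comparisons, as 1.04%, 0.809% and 0.72% of all genes did.
Among the 9, the median log2 fold change was 0.20 in the infusion comparison, −0.26 in the QDG comparison and −0.01 in the QDG-to-Control comparison, beside medians over all genes of 0.08, −0.02 and 0.06. All fold changes here are differences of mean log2(FPKM + 1).

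**Figure D2:**
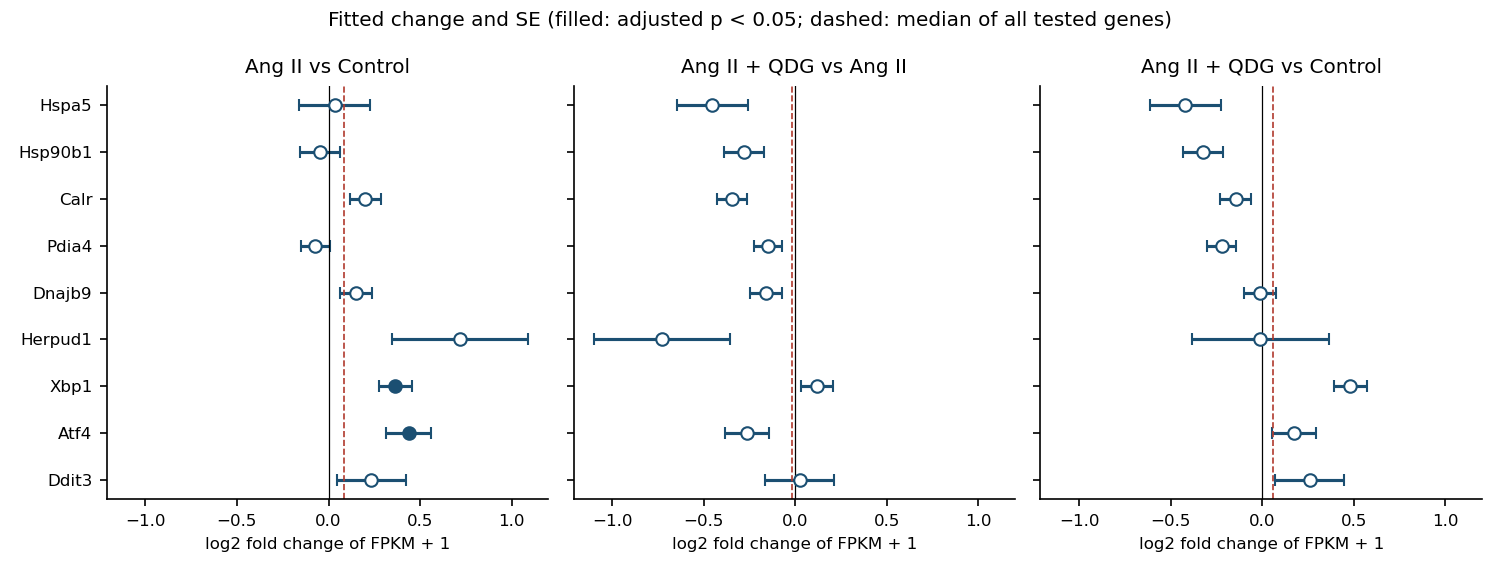
Fitted log2 fold change of FPKM + 1 (points) with its standard error (bars) for the 9 tested members in the 3 comparisons; filled points passed an adjusted p of 0.05 and the dashed line is the median of all 12359 genes. Filled points are Xbp1 at 0.37 and Atf4 at 0.44 in the infusion comparison, and Herpud1 has the widest bars, 0.37 on either side.

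The ER chaperones were the most abundant members. Hspa5 encodes BiP, the Hsp70 chaperone of the ER lumen that binds unfolded chains and holds the stress sensors inactive. Its level was 161, 152, 151, 101 and 142 FPKM in the Control mice, 147, 169, 175, 121 and 115 FPKM in the Ang II mice, and 116, 63.0, 137, 115 and 107 FPKM in the QDG mice. All 3 groups overlapped, and the lowest value was that of QDG mouse 2. The log2 fold change was 0.03 (SE 0.19, adjusted p = 0.944) in the infusion comparison, a sign that turned under median scaling and quantile normalization. It was −0.45 (SE 0.19, unadjusted p = 0.0352, adjusted p = 0.258) in the QDG comparison, and −0.27 without QDG mouse 2.
That mouse differed in the main Hspa5 transcript, ENSMUST00000100171 (chromosome 2, 34772095 to 34776531), which carries 86.0% of the gene sum. It was at 29.0 FPKM there and at 82.5 to 155 FPKM in the other 14 mice, while the longer ENSMUST00000028222 (chromosome 2, 34771970 to 34777547) was at 20.4 FPKM there and at 6.32 to 19.8 FPKM elsewhere. The lowest level of one transcript and the highest of the other thus came from the same mouse.

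Hsp90b1 encodes GRP94, the Hsp90 of the ER. It measured 150 ± 23.2 FPKM (SD, n = 5) in Control, 145 ± 18.6 FPKM in Ang II and 119 ± 8.34 FPKM in the QDG mice. Single mice ran from 115 to 178, from 127 to 173 and from 107 to 128 FPKM. The QDG mice lay at the low end of both other groups and overlapped each of them. The log2 fold change was −0.05 (SE 0.11, adjusted p = 0.848) in the infusion comparison and −0.28 (SE 0.11, unadjusted p = 0.0228, adjusted p = 0.212) in the QDG comparison. Against Control it was −0.32 (unadjusted p = 0.0100, adjusted p = 0.199).

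Calr encodes calreticulin, the lectin chaperone that binds newly made glycoproteins and stores calcium, and was the most abundant member. It measured 322, 325, 292, 298 and 248 FPKM in the Control mice, 323, 369, 302, 391.9 and 323 FPKM in Ang II, and 289, 270, 263, 263 and 254 FPKM in the QDG mice. Every QDG mouse was below every Ang II mouse; Calr was the 1 member of 9 with such a gap in this comparison, and 5% of all genes had one in either direction. The log2 fold change of −0.35 (SE 0.08) had an unadjusted p of 0.000957 and an adjusted p of 0.0506, just outside the threshold. Leaving out 1 mouse at a time gave an adjusted p of 0.0304 to 0.119, and the result passed without Control mouse 5 (0.0304), Ang II mouse 3 (0.0434) or QDG mouse 1 (0.0485). In the infusion comparison the log2 fold change was 0.20 (SE 0.08, unadjusted p = 0.0296, adjusted p = 0.167). Other settings took that value as low as 0.10 with an adjusted p up to 0.530, and without 1 mouse it ran from 0.14 to 0.24.

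Pdia4 encodes ERp72, a protein disulfide isomerase. It measured 45.5 ± 1.89 FPKM in Control, 43.5 ± 5.49 FPKM in Ang II and 39.0 ± 2.98 FPKM in the QDG mice (SD, 5 mice a group). Its log2 fold change was −0.07 (adjusted p = 0.644) in the infusion comparison, −0.15 (adjusted p = 0.375) in the QDG comparison, and −0.22 (unadjusted p = 0.0146, adjusted p = 0.227) against Control. Without 1 mouse the first 2 ran from −0.13 to −0.02 and from −0.20 to −0.09, and other scaling took the first as far as −0.17 and the second to −0.07. Dnajb9 encodes ERdj4, a J-domain partner of BiP. It measured 18.4 ± 1.77, 20.6 ± 2.64 and 18.2 ± 1.46 FPKM in Control, Ang II and QDG. Its 3 groups overlapped and its smallest adjusted p was 0.331.

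Herpud1 encodes HERP, a membrane protein of the ER-associated degradation machinery. Its level was 116, 119, 115, 45.1 and 47.8 FPKM in the Control mice, 120, 145, 145, 128 and 132 FPKM in Ang II, and 45.3, 132, 41.5, 94.8 and 140 FPKM in the QDG mice. The values fell into a low set of 4 mice at 41.5 to 47.8 FPKM, 2 of Control and 2 of QDG, and a set at 94.8 FPKM or more that held all Ang II mice. Every Ang II mouse was above every Control mouse, yet the log2 fold change of 0.72 (SE 0.37) had an unadjusted p of 0.0750 and an adjusted p of 0.277. In the QDG comparison it was −0.73 (SE 0.37, adjusted p = 0.359). The fit used 1 spread for all 3 groups, and the SD was 38.5 FPKM in Control, 10.7 FPKM in Ang II and 46.5 FPKM in the QDG mice.
The same 4 mice stood apart in the main transcript, ENSMUST00000034220 (chromosome 8, 94386495 to 94395358), which carries 95.8% of the sum. It was at 38.5 to 41.8 FPKM in the 4 low mice and at 90.4 to 139 FPKM in the other 11. Transcripts that the authors assembled carry no gene name and enter no sum; they held 9.705% to 11.8% of the summed FPKM in the 4 low mice and 9.57% to 11.9% in the other 11, and their part in the Herpud1 values was not tested.

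**Figure D3:**
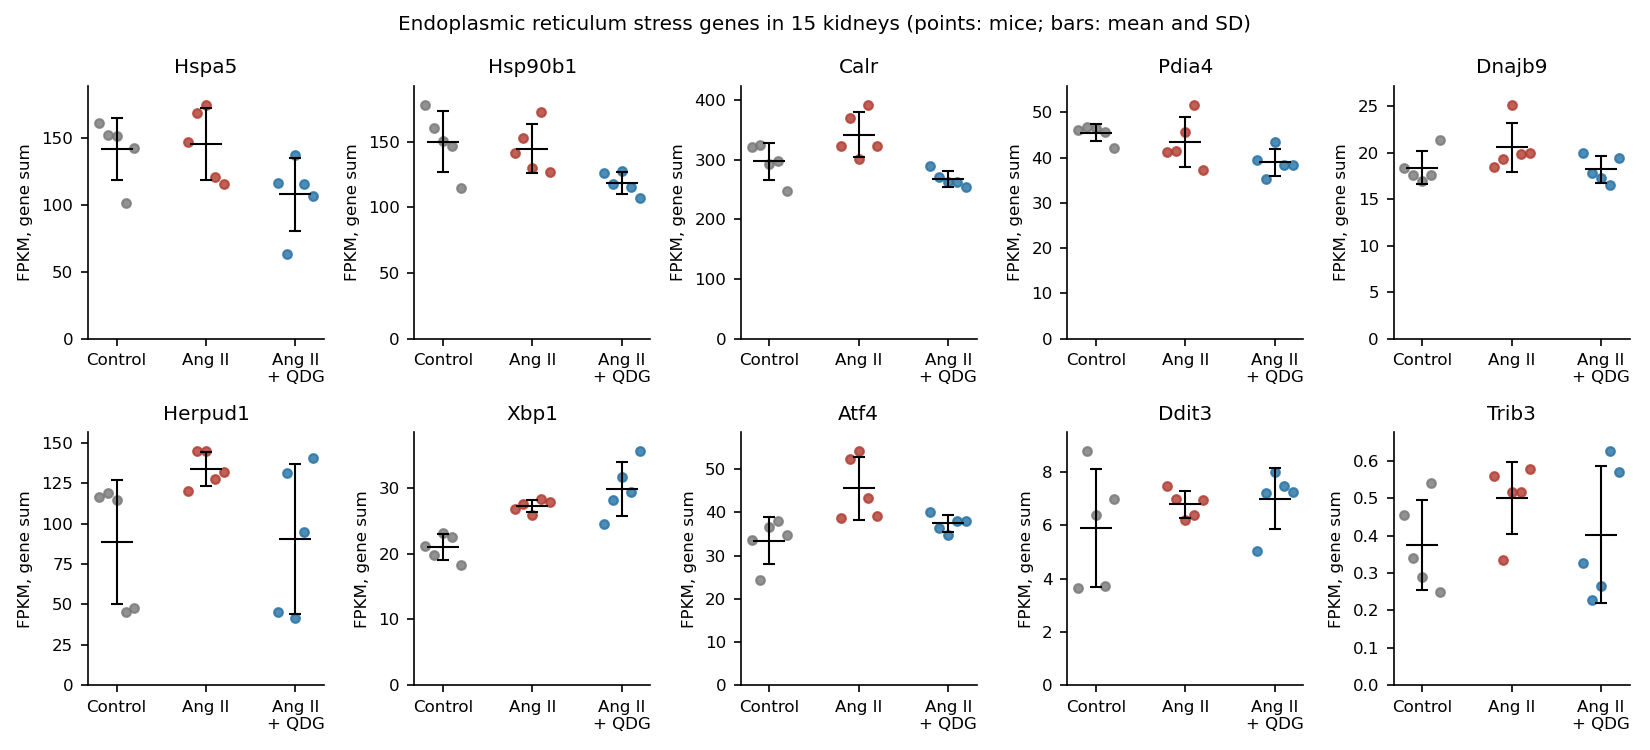
Summed FPKM of each of the 10 genes by mouse (points) with the group mean and SD (bars), 5 mice per group. Every Ang II mouse is above every Control mouse in Xbp1, Atf4 and Herpud1, Calr is lower in every QDG mouse than in every Ang II mouse, and Herpud1 has 4 mice under 50 FPKM.

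Xbp1 encodes the transcription factor that is made after IRE1 removes a short segment from its mRNA, and it drives genes of folding, degradation and secretion. It was at 21.3, 19.9, 23.1, 22.6 and 18.3 FPKM in the Control mice, 26.8, 27.6, 25.9, 28.3 and 27.9 FPKM in Ang II, and 24.5, 28.2, 31.7, 29.4 and 35.6 FPKM in the QDG mice. Every mouse of both infused groups was above every Control mouse. The log2 fold change was 0.37 (SE 0.09, adjusted p = 0.0286) in the infusion comparison. In the QDG-to-Control comparison it was 0.48 (SE 0.09, unadjusted p = 8.27e-05, adjusted p = 0.0562), the 18th smallest p of the 12359 genes. The QDG comparison gave 0.12 (SE 0.09, adjusted p = 0.555), which was 0.36 (adjusted p = 0.0961) with protein-coding transcripts alone and 0.05 to 0.18 without 1 mouse.
The rise in the infusion comparison did not pass when only protein-coding transcripts were summed (log2 fold change 0.13, adjusted p = 0.543). It also did not pass under median scaling (0.27, adjusted p = 0.121) or quantile normalization (0.28, adjusted p = 0.104), or without Control mouse 1 or 5 or Ang II mouse 2, 4 or 5 (adjusted p = 0.0549 to 0.0634).

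The 2 main Xbp1 transcripts are described separately. ENSMUST00000145588 is a noncoding transcript (chromosome 11, 5521005 to 5524026, plus strand, GRCm38) annotated as retained intron: its last exon runs past the splice site at 5523467 and holds 559 bases of the following intron, 5523468 to 5524026. The stretch over that boundary is shown because it is what tells this transcript from the coding one; capitals are intron.
Xbp1 retained intron, chr11:5523438-5523547, plus strand: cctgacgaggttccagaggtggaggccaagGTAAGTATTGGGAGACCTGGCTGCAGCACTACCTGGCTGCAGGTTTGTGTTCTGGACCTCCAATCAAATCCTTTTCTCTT
The retained-intron transcript was at 1.21, 2.17, 2.66, 0.598 and 2.04 FPKM in the Control mice, 5.85, 5.63, 7.57, 5.98 and 6.14 FPKM in Ang II, and 2.98, 2.18, 2.07, 1.17 and 4.18 FPKM in the QDG mice. The Ang II mice lay above all 10 mice of the other groups. Its log2 fold change was 1.46 (SE 0.25, adjusted p = 0.0210) in the infusion comparison, so that it rose. Against Ang II, the change with QDG was −1.09 (SE 0.25, unadjusted p = 0.000571, adjusted p = 0.0913). The call in the infusion comparison was lost without Control mouse 1 (adjusted p = 0.0554), Ang II mouse 2 (0.0505) or Ang II mouse 5 (0.0548).

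The coding transcript ENSMUST00000063084 (chromosome 11, 5520659 to 5525893), with 75.3% of the gene sum, measured 16.9 ± 2.01 FPKM in the Control mice and 17.7 ± 1.97 FPKM in those given Ang II (SD, 5 mice a group), a log2 fold change of 0.07 (SE 0.12, adjusted p = 0.835) that turned sign under median scaling and quantile normalization. It was at 24.3 ± 3.88 FPKM in the QDG mice, which is 0.42 (SE 0.12, unadjusted p = 0.00404, adjusted p = 0.182) above Ang II and 0.49 (unadjusted p = 0.00130, adjusted p = 0.230) above Control on the log2 scale.
The retained-intron share of the Xbp1 sum was 8.39% ± 4.0 in Control, 22.9% ± 3.56 in Ang II and 8.43% ± 3.49 in the QDG mice (SD, 5 mice a group). Single mice ran from 2.65% to 11.5%, from 20.4% to 29.2% and from 3.98% to 12.2%. The share was chosen after the transcript values had been seen. No test is given for it.
The same class of transcript was read across the genome. Of 2757 tested retained-intron transcripts, 39 were higher and 1 lower at an adjusted p under 0.05 in the infusion comparison, and 2 and 0 were in the QDG comparison. Of the 2757, 79.1% had a positive log2 fold change in the infusion comparison, with a median of 0.30, against 58.6% and 0.06 for 15250 protein-coding transcripts. In the QDG comparison, 33.5% were positive, with a median of −0.13, against 49.1% and −0.01 for protein-coding transcripts. In the QDG-to-Control comparison, 73.0% were positive, with a median of 0.19, against 57.5% and 0.04. The part of this class-wide difference in the Xbp1 values was not tested. Control mice had 41477 transcripts listed and mice of both infused groups 42310, and the part of that difference was not tested either. The 4 annotated Xbp1 transcripts have no intron shorter than 300 bases, so the form that IRE1 cuts was not separated from the uncut form.

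**Figure D4:**
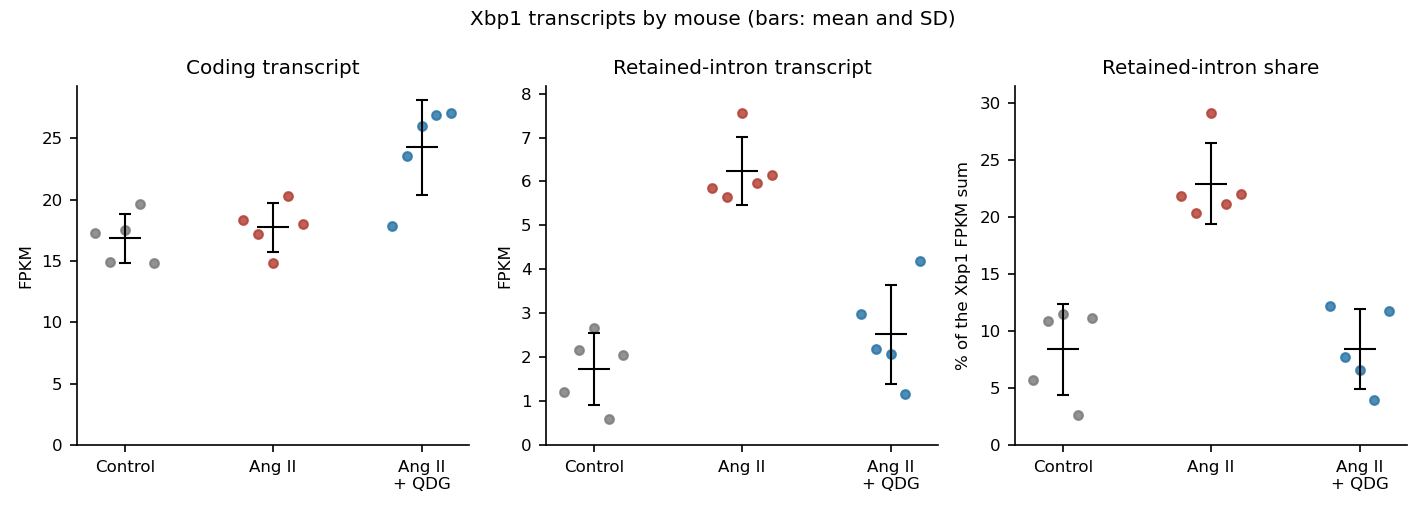
FPKM of the coding and the retained-intron transcript of Xbp1 and the share of the latter in the gene sum, by mouse (points) with group mean and SD (bars), 5 mice per group. The retained-intron share is 20.4% or more in every Ang II mouse and 12.2% or less in every other mouse, and the coding transcript has its highest group mean, 24.3 FPKM, in the QDG mice, with overlapping groups.

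Over all members, 25 of the 26 transcripts listed for any mouse were listed for every mouse and 20 were tested. The Xbp1 retained-intron transcript was the 1 that passed an adjusted p of 0.05 in the infusion comparison, where 0.691% of all 28812 transcripts did. It was also the 1 that had a 2-fold change with an unadjusted p under 0.05 there (2.88% of all transcripts) and in the QDG comparison (2.24%), and 0 did in the QDG-to-Control comparison (2.02%). In the QDG comparison and the QDG-to-Control comparison 0 member transcripts passed an adjusted p of 0.05, where 0.0972% and 0.0243% of all did. An unadjusted p under 0.05 was found for 5, 5 and 4 of the 20 in the 3 comparisons, against 15.9%, 11.3% and 10% of all transcripts.

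Atf4 encodes the transcription factor whose translation rises when PERK or its sister kinases phosphorylate eIF2α, and it acts on amino acid supply and redox genes. It measured 33.7, 24.2, 36.6, 38.0 and 34.7 FPKM in the Control mice, 38.7, 52.4, 54.2, 43.4 and 39.3 FPKM in Ang II, and 40.0, 36.3, 34.8, 38.0 and 38.1 FPKM in the QDG mice. Every Ang II mouse was above every Control mouse, the nearest pair being 38.7 and 38.0 FPKM. With Xbp1 and Herpud1 this made 3 of 9 members with such a gap in the infusion comparison, where 7.92% of all genes had one in either direction; Xbp1 was the 1 of 9 in the QDG-to-Control comparison (3.64%). The log2 fold change was 0.44 (SE 0.12, adjusted p = 0.0488) in the infusion comparison and −0.26 (SE 0.12, unadjusted p = 0.0463, adjusted p = 0.294) in the QDG comparison.
The Atf4 call stood at the edge of the threshold. Leaving out 1 mouse at a time gave an adjusted p of 0.0442 to 0.111, and the call was kept in 2 of 15 such fits, those without Control mouse 4 or Ang II mouse 1. Median scaling gave a log2 fold change of 0.34 (adjusted p = 0.193), and protein-coding transcripts alone gave 0.43 (adjusted p = 0.0759).

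Ddit3 encodes CHOP, a transcription factor that promotes cell death under lasting stress. It was at 3.64, 8.78, 6.39, 3.73 and 6.98 FPKM in Control, 6.21 to 7.47 FPKM in Ang II and 5.02 to 7.997 FPKM in the QDG mice. The groups overlapped, with the widest spread in Control. Its log2 fold change was 0.23 (SE 0.19, unadjusted p = 0.231) in the infusion comparison, running from 0.11 to 0.38 without 1 mouse, and 0.02 (SE 0.19, adjusted p = 0.967) in the QDG comparison. One further Ddit3 transcript was listed for the Control mice alone, at 0 to 1.37 FPKM, and was left out of the sum.
Trib3 encodes a pseudokinase induced by Atf4 and CHOP. It was at 0.25 to 0.54 FPKM in Control, 0.336 to 0.577 FPKM in Ang II and 0.227 to 0.626 FPKM in the QDG mice, which is 35 to 90 implied reads per mouse. This was under the filter. Fitted without the filter, its log2 fold change was 0.13 (adjusted p = 0.472) in the infusion comparison and −0.11 (adjusted p = 0.648) in the QDG comparison.

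Likeness to Hspa5 from mouse to mouse was read within groups. After each group mean was subtracted from log2(FPKM + 1), the 5 genes most like Hspa5 over 15 mice were Exoc3l2 (Pearson's r 0.90), Vps35l (0.84), March7 (0.84), Kpna1 (0.82) and Rbm38 (0.82), of which none is on the lists used here. Among 12358 genes ranked, the other tested members stood between rank 962 (Pdia4, r 0.36) and rank 6996 (Herpud1, r −0.11). Without Control mouse 4 and QDG mouse 2, the 2 farthest from the Hspa5 median, r of those 5 was between 0.35 (Kpna1) and 0.70 (Vps35l), and that of Pdia4 was 0.26. These are descriptions over 15 mice, each its own library.

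Other genes of the response were taken from 5 lists with 136 genes, of which 121 were tested. In the infusion comparison 5 of the 121 were upregulated and 1 was downregulated (5.95% of all genes passed), and in the QDG comparison 0 were upregulated and 5 downregulated (1.81%). In the QDG-to-Control comparison 0 passed by limma (0.129%). At an unadjusted p under 0.05, 27 were higher and 4 lower in the infusion comparison, 1 higher and 25 lower in the QDG comparison and 6 higher and 4 lower in the QDG-to-Control comparison, against 22.7%, 16.4% and 14.4% of all genes. Over all genes these were 2215 higher and 596 lower, 743 higher and 1289 lower, and 1317 higher and 460 lower. Median log2 fold changes of the 121 were 0.11, −0.08 and −0.01. These genes and the members shared a limit: with median scaling, 2 of the 121 passed in the infusion comparison and both were kinases that were lower, and calls over all genes went from 612 higher and 123 lower to 214 higher and 287 lower. Those in the QDG comparison went from 65 higher and 159 lower to 68 higher and 99 lower. Leaving out 1 mouse also moved the calls over all genes. The infusion comparison had 271 higher and 67 lower without Control mouse 1, and 689 and 110 without Control mouse 2. The QDG comparison had 7 and 46 without Ang II mouse 2, and 52 and 202 without QDG mouse 1. The QDG-to-Control comparison had 12 and 4 with all mice, 91 and 19 without Control mouse 2, and 0 and 0 without Control mouse 4.

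Of 24 tested folding factors that work beside the chaperone members, 3 passed in the infusion comparison, where 5.95% of all genes did. In the QDG comparison 3 passed, where 1.81% of all genes did. Creld2, a disulfide isomerase-like protein secreted under ER stress, was at 14.8 to 17.7 FPKM in Control, 19.2 to 25.3 FPKM in Ang II and 10.2 to 14.4 FPKM in the QDG mice, with no overlap between any 2 groups. Its log2 fold change was 0.41 (SE 0.10, adjusted p = 0.0272) in the infusion comparison and −0.85 (SE 0.10, adjusted p = 0.00265) in the QDG comparison, the smallest p of all 12359 genes in the latter. Dnajb11, the BiP partner ERdj3, rose by 0.28 (SE 0.07, adjusted p = 0.0274) and was lower with QDG by a log2 fold change of −0.40 (SE 0.07, adjusted p = 0.0148). Both genes passed in the QDG comparison without any 1 mouse. Their calls in the infusion comparison were lost in 5 and 4 of the 15 fits that left out a mouse, with adjusted p up to 0.0684 for Creld2 and 0.0589 for Dnajb11.
Manf, a secreted ER stress factor, was at 21.6 ± 2.61, 28.8 ± 4.86 and 18.7 ± 2.32 FPKM (SD, n = 5) in Control, Ang II and QDG. It fell in the QDG comparison (log2 fold change −0.59, adjusted p = 0.0255), but with protein-coding transcripts alone the change was −0.34 (adjusted p = 0.302). Its 0.39 in the infusion comparison had an adjusted p of 0.0670. Fkbp2, a prolyl isomerase of the ER, rose in the infusion comparison (0.57, adjusted p = 0.0326). These calls of Manf and Fkbp2 were lost in 5 and 6 of the 15 fits. The list had 24 tested genes, with median log2 fold changes of 0.17 and −0.14.

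**Figure D5:**
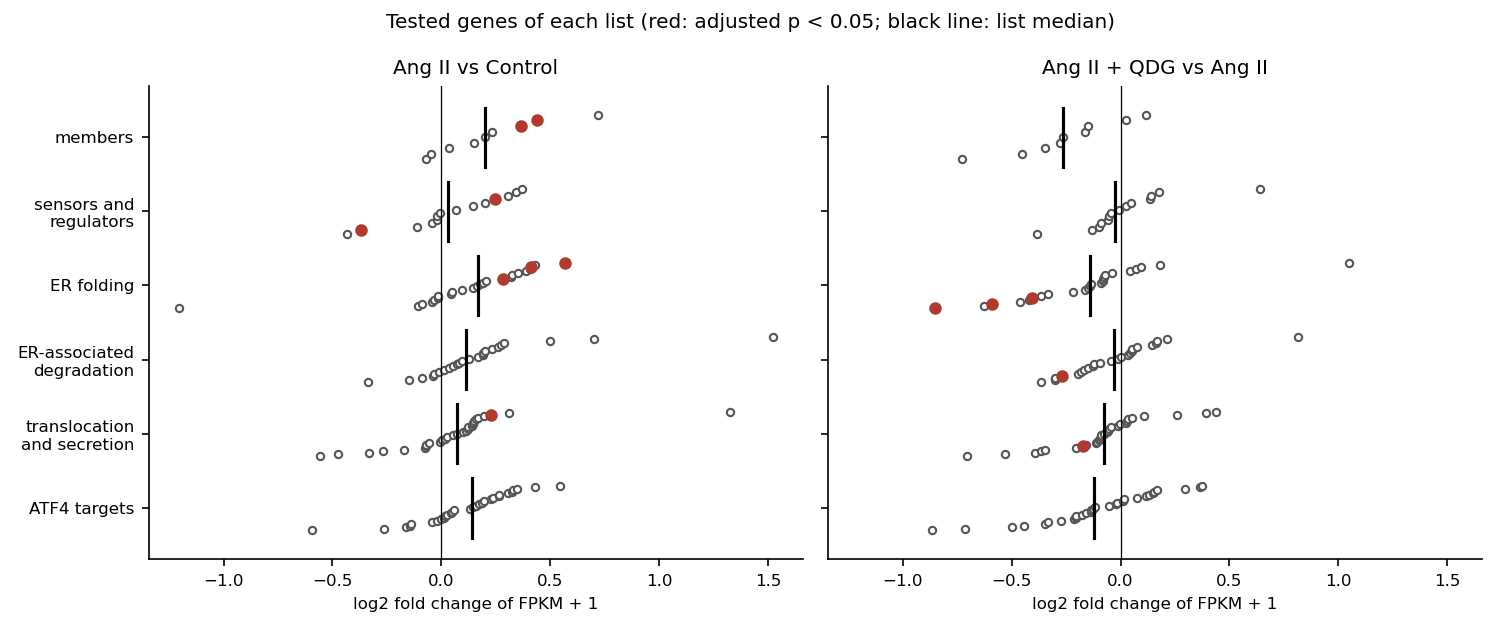
Log2 fold change of FPKM + 1 for each tested gene (points) of the members and 5 other lists, with the list median (black line), in the infusion comparison and the QDG comparison; red points passed an adjusted p of 0.05. The red points of ER folding lie between 0.28 and 0.57 on the left and between −0.85 and −0.40 on the right.

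Of the degradation genes that act with Herpud1, 0 of 24 passed in the infusion comparison and Derl1, a channel protein of the membrane complex, fell in the QDG comparison (log2 fold change −0.27, adjusted p = 0.0329). Sel1l, the adaptor of the ligase complex, had −0.30 there (adjusted p = 0.0506), and 0.23 in the infusion comparison (adjusted p = 0.0718). Of 29 genes of translocation and early secretion, Sec61a1, the pore through which chains enter the ER, rose in the infusion comparison (0.23, adjusted p = 0.0266) and had −0.21 with QDG (adjusted p = 0.0690). Stt3b, a catalytic subunit of oligosaccharyltransferase, fell in the QDG comparison (−0.17, adjusted p = 0.0494), a call lost in 14 of the 15 fits that left out a mouse. The calls of Derl1 and Sec61a1 were lost in 8 and 5 of them. Kdelr2, a receptor that returns escaped chaperones, had 0.20 in the infusion comparison (adjusted p = 0.0778).
Among 14 sensors and regulators, Ppp1r15b, the constitutive eIF2α phosphatase subunit, rose in the infusion comparison (0.25, SE 0.05, adjusted p = 0.0153). That call stood in every fit that left out a mouse and was lost under median scaling (0.15, adjusted p = 0.123), quantile normalization (0.16, adjusted p = 0.0944) and with protein-coding transcripts alone (0.27, adjusted p = 0.0679). Eif2ak2, the double-stranded RNA kinase PKR, fell (−0.37, adjusted p = 0.0471), a call lost in 13 of those 15 fits. The proteases that release ATF6, Mbtps1 and Mbtps2, had −0.38 (adjusted p = 0.240) and 0.64 (adjusted p = 0.352) in the QDG comparison. With protein-coding transcripts alone Mbtps1 had 0.23 there, the opposite sign. With a pseudocount of 0.1 Mbtps2 had 1.09, and without 1 mouse it ran from 0.41 to 0.78.
Of 30 tested Atf4 targets 0 passed in either comparison by limma, and in the infusion comparison 4 were higher and 1 lower at an unadjusted p under 0.05 (22.7% of all genes) and in the QDG comparison 5 were lower (16.4%). Asns, asparagine synthetase, had −0.71 with QDG (adjusted p = 0.0919) at levels of 0.249 to 3.36 FPKM, and −1.33 with a pseudocount of 0.1, and Atf5 had −0.50 (adjusted p = 0.134). Cebpg, a partner of Atf4, had 0.43 in the infusion comparison (adjusted p = 0.120) and Shmt2, a mitochondrial one-carbon enzyme, had 0.27 (adjusted p = 0.138).

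Markers of other cells and immediate early genes were read beside these changes. Of 6 immediate early genes, 5 were listed for every mouse and 4 were tested. Their summed level was 13.1 to 18.6 FPKM in Control, 20.6 to 26.9 FPKM in Ang II and 13.3 to 19.5 FPKM in the QDG mice. Junb, Ier2 and Nr4a1 rose in the infusion comparison (0.56, 0.42 and 1.20, adjusted p = 0.0143, 0.0398 and 0.0312), and Junb fell with QDG (−0.48, adjusted p = 0.0438). Their part in the ER stress values was not tested. Of the podocyte markers, Podxl, a sialomucin of the foot processes, was at 44.2 to 52.6 FPKM in Control, 52.3 to 70.3 FPKM in Ang II and 56.1 to 73.1 FPKM in the QDG mice, and it rose in the infusion comparison (0.35, adjusted p = 0.0277). The rest of that list is not reported here. The smooth muscle markers summed to 38.5 to 50.7, 43.0 to 97.8 and 52.9 to 61.2 FPKM in Control, Ang II and QDG, every QDG mouse being above every Control mouse, and 1 of 4, Tagln, rose in the infusion comparison. Their part in the ER stress values was not tested either.
Of 7 B cell and plasma cell markers, cells with a dense ER, 4 were listed for every mouse, 0 passed by limma and 1 had an unadjusted p under 0.05 in each comparison; their summed level ran from 7.46 to 111 FPKM and overlapped between all groups. Of the 8 pancreatic acinar markers Cela1 alone was listed for every mouse. It was at 50.7 to 140 FPKM with overlapping groups. For endothelium, loop with distal tubule and collecting duct, macrophages and T cells, hepatocytes, adipocytes and adrenal cortex, the summed marker levels overlapped between all groups, 0 genes passed by limma, and at most 2 genes of a list had an unadjusted p under 0.05 in a comparison.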

How the data were processed

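Kidney RNA was sequenced after ribosomal RNA depletion on an Illumina instrument. The labels name this depletion alone, the study's methods also a poly(A) selection, which would bear on retained-intron values; which was used is not settled here. The authors deposited 1 table per mouse with 1 value per transcript. The unit is not named, and the deposited values were taken as FPKM because, multiplied by transcript length, 98.4% or more of the low values of each mouse (under 200 reads, tolerance 0.05 reads) were whole numbers of a common step. The submitters' processing notes name the build mm10 and limma, and the aligner, counter and annotation are not given in the sources used here. Transcripts were matched to GENCODE M21 (GRCm38), and those listed for all 15 mice (40054 of 43733, of which 11141 were assembled by the authors and carry no gene name) were summed by symbol. Each Control mouse had 41477 transcripts listed and each Ang II and QDG mouse 42310. The transcript list thus differed between Control and both infused groups, which cannot be told apart from the infusion in comparisons with Control. Its part in the values was not tested. limma 3.58.1 in R 4.3.3 was fitted to log2(FPKM + 1) with 1 mean per group over all 15 mice and a trend, for genes, or single transcripts, that reached 1 FPKM in 5 or more mice, and was tested on simulated data. Benjamini-Hochberg adjustment ran over all features tested. The pseudocount understates the change of low genes. Depth is implied by the values, not stated.

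The members and lists were chosen with earlier results of these data known. All members are named, as are, of each list, the genes that passed (at most 6 by p) and the 2 with the smallest p in the infusion and the QDG comparison. Transcripts with at least 10% of a gene's sum were named; others were named after their values were seen. Alternatives changed the pseudocount, filter, scaling, variance model, transcripts summed and mice included. Each sample is 1 mouse by its label; mice were numbered in order of accession, so nothing was paired. Promoter windows are RefSeq's. Tables were made with pandas. The podocyte marker list is reported in part.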

Additional observations from a re-analysis of the deposited data

Results flagged for a closer look

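In 81 groups of 5 values (27 genes in 3 groups), 7 had 1 mouse whose gap to the nearest other was over 0.71 of the group's range, where chance flags about 1 in 20. Ddit3 was lowest in QDG mouse 1 (5.02 FPKM against 7.20 to 7.997, gap 0.732 of the range). Pdia4 was lowest in Control mouse 5 (42.2 against 45.7 to 46.8 FPKM, 0.774). The third Ang II mouse was highest in Dnajb9 (25.1 against 18.4 to 20.0 FPKM, 0.766) and in Sel1l (28.5 against 22.8 to 24.2 FPKM, 0.755), and lowest in Eif2ak2 (3.19 against 4.26 to 4.43 FPKM, 0.862). Trib3 was lowest in Ang II mouse 2 (0.336 against 0.517 to 0.577 FPKM, 0.748) and Atf5 in QDG mouse 4 (3.57 against 6.13 to 7.09 FPKM, 0.727). So 3 of the 7 came from Ang II mouse 3.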

How the results depend on the processing

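The count of members passing in the infusion comparison was 2 and fell to 1 (Xbp1) with a pseudocount of 0.1, no filter, only the groups compared, or no mitochondrial transcripts, and to 0 under median scaling, quantile normalization, or protein-coding transcripts only; leaving out 1 mouse gave 0 to 2. In the QDG comparison it was 0 in the 9 other settings and 0 to 1 (Calr) without 1 mouse. In the QDG-to-Control comparison it was 0, became 1 (Xbp1) with all listed transcripts, and was 0 to 1 without 1 mouse. For the other response genes the count in the infusion comparison was 6 and became 2 under median scaling, quantile normalization and only the groups compared, and 1 to 8 without 1 mouse. In the QDG comparison it was 5 and became 3 under both scalings and 2 with only the groups compared, and 2 to 6 without 1 mouse. Member transcripts passing in the infusion comparison were 1, and 0 to 1 without 1 mouse. The causes were not tested.

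Changes that turned sign were small except where noted. Hspa5 in the infusion comparison (0.03) became −0.0689 under median scaling and −0.0480 under quantile normalization, and ran from −0.0811 to 0.111 without 1 mouse. The Xbp1 coding transcript in that comparison (0.07) became −0.0796 and −0.00095. With protein-coding transcripts only, Mbtps1 turned from 0.20 to −0.251 in the infusion comparison and from −0.38 to 0.234 in the QDG comparison. Leaving out 1 mouse turned Hsp90b1 in the infusion comparison (−0.138 to 0.0195), Ddit3 in the QDG comparison (−0.0216 to 0.123), and Dnajb9 (−0.0434 to 0.0430) and Herpud1 (−0.216 to 0.223) in the QDG-to-Control comparison. Trib3 was under the filter on low values. No paired analysis was possible because the mice carry no shared number.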
